A study of Homo sapiens with 2 samples.

Results

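The genes described here are those whose symbol is ZNF followed by digits alone and whose mean over both libraries was at least 2 FPKM (fragments per kilobase of transcript, scaled to the mapped fragments of the library). Members were chosen by symbol and by mean level in these same libraries, so their level is a description, and earlier results of these data were known when the set was proposed. There were 247 members among 432 genes with such a symbol, out of 13017 genes listed. Another 185 genes with such a symbol lay below the limit.

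The cells were a breast cancer cell line that the labels call 468, of epithelioid morphology, grown in L15 medium with serum. In the knockdown library the antisense RNA THAP7-AS1 had been silenced by transfection of a Smart Silencer, a mixture of silencing oligonucleotides, and the cells were taken after 48 h. The control library came from cells given si-NC, a negative control. The treatment label names the Smart Silencer for both samples, so the groups were taken from the genotype label. Each group is a single library, so nothing can be tested against replicates, and every difference given describes these 2 libraries. Fewer cells of a kind and less RNA per cell cannot be told apart in such bulk samples.

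Zinc finger proteins of the C2H2 kind fold each finger around a zinc ion held by a pair of cysteines and a pair of histidines, and tandem fingers read DNA sequence. Many carry a KRAB domain at the front, which recruits TRIM28 and through it the histone methyltransferase SETDB1 and HP1 proteins, and so silences the sites that the fingers bind, many of them in transposable elements. Others carry a SCAN domain, through which the proteins pair with each other. Many of the genes lie in large tandem runs on chromosome 19 that arose by repeated duplication.

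The level of THAP7-AS1 itself was not analysed here, so the values give no check of the knockdown. THAP7, the gene on the other strand beside it, was at 8.38 FPKM after knockdown and 2.71 in the control, with a log2 ratio of 1.34. All 6 epithelial markers were listed, from 12.4 FPKM for CDH1 to 1106 for KRT19 in the knockdown library. In the control library CDH1 was at 17.1 FPKM and KRT19 at 1057. Of the 6, only CDH1 had the lower value after knockdown. Of the markers of basal breast epithelium, KRT5 was at 64.0 FPKM after knockdown and 55.6 in the control, KRT14 at 5.94 and 3.25, KRT17 at 77.4 and 76.9 and EGFR at 258 and 336, while TP63 was not analysed here. KRT14 and EGFR thus differed in opposite directions. Of the leukocyte markers, CD68 and CD14 had values, from 3.25 to 10.3 FPKM. Fibroblast markers summed to 0.878 and 0.874 FPKM over COL1A1 and PDGFRB. CD68 and CD14 summed to 13.6 FPKM after knockdown and 12.7 in the control library, the other 3 leukocyte markers and all 3 endothelial markers were not analysed here, and the part of these markers in the results was not tested.

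A set of 4 stretches of coding sequence shows what most members share, taken from the ends of the ranking by ratio: ZNF579, ZNF627 and ZNF24 had the highest ratios and ZNF155 the lowest. Each is the code of 1 finger and the 5 codons after it, read 5′ to 3′ from the longest coding transcript in GENCODE release 29 (build GRCh38), with the codons of the zinc-binding cysteines and histidines in capitals. The ZNF579 stretch lies at chr19:55579427-55579504 on the minus strand in exon 2 of 2. That of ZNF627 lies at chr19:11617092-11617169 on the plus strand in exon 4 of 4, that of ZNF24 at chr18:35337421-35337498 on the minus strand in exon 4 of 4, and that of ZNF155 at chr19:43996473-43996550 on the plus strand in exon 6 of 6. In the last 3 the 5 codons spell the linker TGEKP, which joins neighbouring fingers, and in ZNF579 they do not.
ZNF579: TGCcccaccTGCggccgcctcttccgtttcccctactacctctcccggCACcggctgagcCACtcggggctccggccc
ZNF627: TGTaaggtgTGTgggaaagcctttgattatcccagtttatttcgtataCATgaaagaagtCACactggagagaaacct
ZNF24: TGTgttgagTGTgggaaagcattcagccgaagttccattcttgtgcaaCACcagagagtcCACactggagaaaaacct
ZNF155: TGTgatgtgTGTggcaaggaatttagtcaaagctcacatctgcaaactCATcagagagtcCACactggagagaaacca

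The KRAB domain is shown by 39 bases of code for its most conserved stretch in 4 members. The codons at positions 1, 3, 4, 8, 12 and 13 of the stretch are in capitals. The search pattern restricted positions 3, 4, 8, 12 and 13 in each form that it allowed, and left position 1 free in 1 form. ZNF627 and ZNF564 were higher in the knockdown library and ZNF302 and ZNF155 lower, so that the pattern is present at both ends of the ranking. All 4 lie on chromosome 19 of GRCh38, at chr19:11614539-11614577, chr19:12528646-12528684 (minus strand), chr19:34682783-34682821 and chr19:43991560-43991598. ZNF627 and ZNF564 share 36 of the 39 bases, and ZNF627 and ZNF155 share 30.
ZNF627: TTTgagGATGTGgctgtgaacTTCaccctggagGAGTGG
ZNF564: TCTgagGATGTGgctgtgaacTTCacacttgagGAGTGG
ZNF302: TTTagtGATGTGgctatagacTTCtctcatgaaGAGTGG
ZNF155: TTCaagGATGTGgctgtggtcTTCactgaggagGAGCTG

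The members were genes of low level. Their median was 4.24 FPKM in the knockdown library, ranging from 1.65 to 72.1, and 3.77 in the control, ranging from 1.11 to 60.2. The 9278 other genes that averaged at least 2 FPKM had medians of 8.409 and 8.401 FPKM. Of the 247 members, 157 had a mean under 5 FPKM, 26 a mean of at least 10 and 9 a mean of at least 20. Together they took 0.749% of the summed FPKM of the knockdown library and 0.660% of that of the control library. No member was at 0 in either library.

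ZNF622, a factor in maturation of the large ribosomal subunit, was the most abundant member, at 72.1 FPKM after knockdown against 60.2 in the control. ZNF593, which acts on the same ribosomal particle, was at 58.4 and 54.7 FPKM. ZNF146, a protein made almost only of fingers, was at 57.2 and 50.4 FPKM. All 3 were slightly higher in the knockdown library. ZNF428 was at 39.8 and 32.9 FPKM, ZNF32 at 31.4 and 23.3, and ZNF664 at 26.5 and 18.1. ZNF664, ZNF428 and ZNF146 overlap exons of another listed gene on the opposite strand, namely CCDC92 at 9.21 and 4.15 FPKM, SRRM5 at 1.04 and 0.935, and ZNF565 at 1.15 and 0.999. Reads of such a pair cannot be told apart where counting did not use strand, which the sources used here do not state. ZNF185, which encodes a LIM domain protein of the actin cytoskeleton and has no finger pattern, was at 28.0 and 27.5 FPKM. ZNF217, an oncogene amplified in breast cancers, was at 21.6 and 20.1 FPKM. Thus each of the 8 most abundant members had the higher value in the knockdown library.

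**Figure D1:**
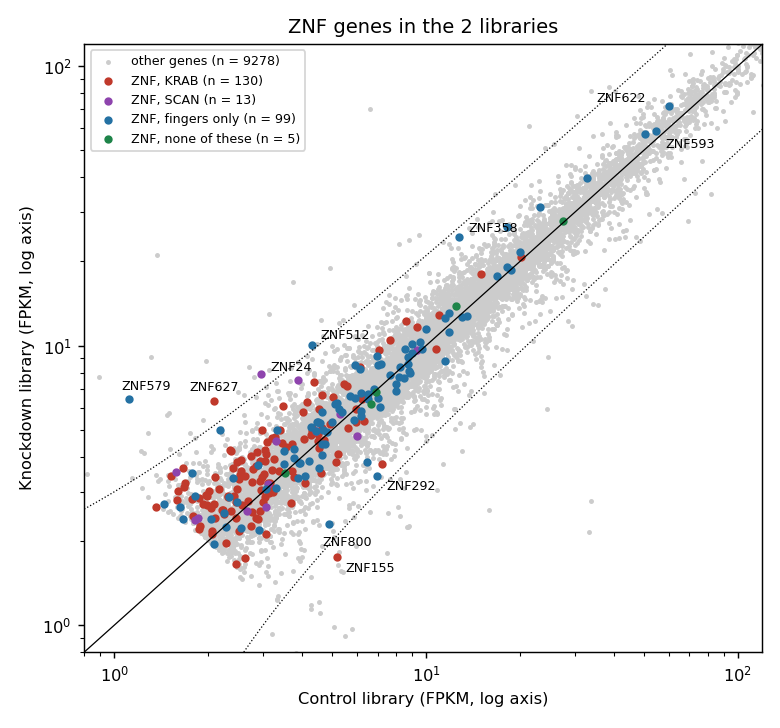
FPKM of each member (coloured by protein pattern) and of other genes that averaged at least 2 FPKM (grey) in the control library (x) and the knockdown library (y), both on log axes that end at 120 FPKM. The solid line marks equal values and the dotted lines a 2-fold ratio of FPKM + 1, past which lie ZNF579, ZNF627, ZNF24 and ZNF512 above and ZNF155 below.

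At the limit of the rule, ZNF195, ZNF652 and ZNF892 lay just inside. ZNF195 was at 2.65 and 1.36 FPKM in the knockdown and control libraries, ZNF652 at 1.95 and 2.08, and ZNF892 at 2.39 and 1.66. Just outside were ZNF844 at 2.29 and 1.69 FPKM, ZNF701 at 1.47 and 2.46 and ZNF821 at 1.98 and 1.88. Of all members, 30 were under 2 FPKM in 1 library only. These were 25 in the control library and 5 in the knockdown library. Each passed the rule through the library where its value was higher, so these counts follow from the ratios and are no further result. The same counts were not taken for other genes.

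As a group the members lay above the other genes in the ratio of the libraries, by a small amount. The log2 ratio was taken as log2((knockdown FPKM + 1)/(control FPKM + 1)), a scale that understates the change of low genes. Over the 247 members its median was 0.13, with quartiles of -0.04 and 0.33, and over the 9278 other genes the median was 0.01, with quartiles of -0.13 and 0.15. The ratio was above 0 in 175 members, 70.9%, against 52.7% of all 9525 genes that passed the same 2 FPKM limit. Differences of less than 1.2-fold were found for 153 members, 61.9%, against 74.8% of all genes.

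Members that differed by more were mostly higher. At least 1.5-fold higher values in the knockdown library were found for 20 members, 8.10%, against 2.89% of all genes. Those at least 1.5-fold lower numbered 5, 2.02%, against 2.47% of all genes, a share near the background. At 2-fold, 4 members were higher, 1.62% against 0.567% of all genes, and 1 was lower, 0.405% against 0.609%. These counts are too small to set the 2-fold shares apart from the background, and of the 20 members that were 1.5-fold higher, 10 were under 2 FPKM in the control library.

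The offset was present in each class of mean FPKM at or above the limit of 2. Among genes with a mean of 2 to 3 FPKM, the median log2 ratio was 0.18 in 70 members and 0.03 in 1069 other genes. It was 0.13 in 87 members and 0.01 in 1710 other genes with a mean of 3 to 5 FPKM. In the class of 5 to 10 FPKM the 64 members had a median of 0.07 and the 2460 other genes one near 0. Above that, the medians were 0.12 in 17 members against 0.01 in 1994 other genes at 10 to 20 FPKM, and 0.18 in 9 members against 0.02 in 2045 other genes at 20 FPKM or more. All 9 of these most abundant members were above 0, as were 1128 of the 2045 other genes at that level, 55.2%. The members also spread more widely than other genes in the 3 lower classes, with a MAD-based SD (scaled from the median absolute deviation) of 0.29 against 0.22 at 2 to 3 FPKM and 0.25 against 0.22 at 5 to 10 FPKM.

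Genes with ZNF symbols below the limit, which the rule did not take, were compared in the same way. With a mean of 1 to 2 FPKM, 107 of them had a median log2 ratio of 0.14, and 78 were above 0, while the 1292 other genes at that level had a median of 0.02. The 78 genes with a mean under 1 FPKM had a median of 0.02, close to the 0.01 of the 2014 other genes at that level.

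**Figure D2:**
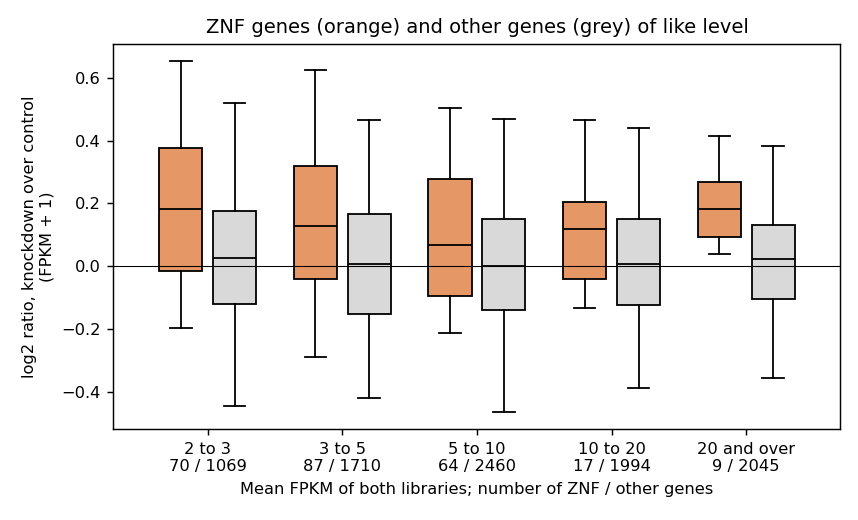
Log2 ratio of FPKM + 1, knockdown over control, for members (orange) and other genes (grey) in classes of mean FPKM, with the number of genes of each kind under the axis. Boxes show the quartiles and median and whiskers the 5th and 95th percentiles over genes, and the median of the members is above that of the other genes in each of the 5 classes.

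ZNF579 had the highest ratio of all members. It stood at 6.46 FPKM after knockdown against 1.11 in the control, which gives a log2 ratio of 1.82, and its protein holds 8 finger patterns and neither a KRAB nor a SCAN pattern. ZNF627, a KRAB member with 11 fingers, was at 6.31 and 2.09 FPKM, with a log2 ratio of 1.24. ZNF24, a SCAN protein also known as ZSCAN3, was at 7.88 and 2.95 FPKM, with a log2 ratio of 1.17. These 3 genes share no annotated exon with another listed gene, and from 0 to 4.52% of the 31-base words of their transcripts occur in transcripts of other genes. ZNF512 was at 10.1 and 4.30 FPKM, with a log2 ratio of 1.06. Of its words 37.1% occur in transcripts of other genes, so its reads may be divided.

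The rest of the 12 highest ratios lay between 0.67 and 0.91. ZNF239 was at 4.97 and 2.19 FPKM and ZNF35 at 3.49 and 1.78, both without a KRAB or SCAN pattern. ZNF444 and ZNF232, which are SCAN members, were at 3.53 and 1.57 FPKM and at 7.55 and 3.88. With ZNF24, 3 of the 13 SCAN members were thus among the 12 highest. The KRAB members ZNF101, ZNF888 and ZNF761 were at 3.41 and 1.52 FPKM, at 3.65 and 1.66, and at 6.10 and 3.46, and between 14.5% and 35.7% of their words occur in other genes. ZNF358 was at 24.5 and 12.8 FPKM, while ENSG00000267952, which shares its exons, was at 2.14 and 33.2. The value of ZNF358 is uncertain for that reason.

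ZNF155, a KRAB member with 11 fingers, had the lowest ratio and was the one member at least 2-fold lower. It stood at 1.75 FPKM after knockdown against 5.16 in the control, which gives a log2 ratio of -1.17, and 13.2% of its words occur in other genes. ZNF292 was at 3.42 and 6.98 FPKM, with a log2 ratio of -0.85, and ZNF800 at 2.29 and 4.90, a log2 ratio of -0.84. Neither ZNF292 nor ZNF800 has a KRAB or SCAN pattern, and none of their words occur in other genes. ZNF302, a KRAB member, was at 3.77 and 7.24 FPKM, and ZNF329, with fingers but no KRAB or SCAN pattern, was at 3.83 and 6.49. Then came a gap, since the next lowest ratio was -0.40, that of ZNF347 at 1.74 and 2.61 FPKM.

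The other members among the 12 lowest were less than 1.5-fold apart. ZNF550 was at 2.12 and 3.06 FPKM, ZNF641 at 1.65 and 2.45, and ZNF689 at 3.82 and 5.15. ZNF264 was at 2.72 and 3.69 FPKM, and ZNF324 at 3.50 and 4.61. ZNF469, the gene of brittle cornea syndrome, was at 8.83 and 11.5 FPKM. The lower end was therefore made of 5 genes that stood apart and a set close to the bulk of the members. ZNF550 overlaps exons of ZNF549 on the opposite strand, and ZNF324 shares exons with ZNF446.

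**Figure D3:**
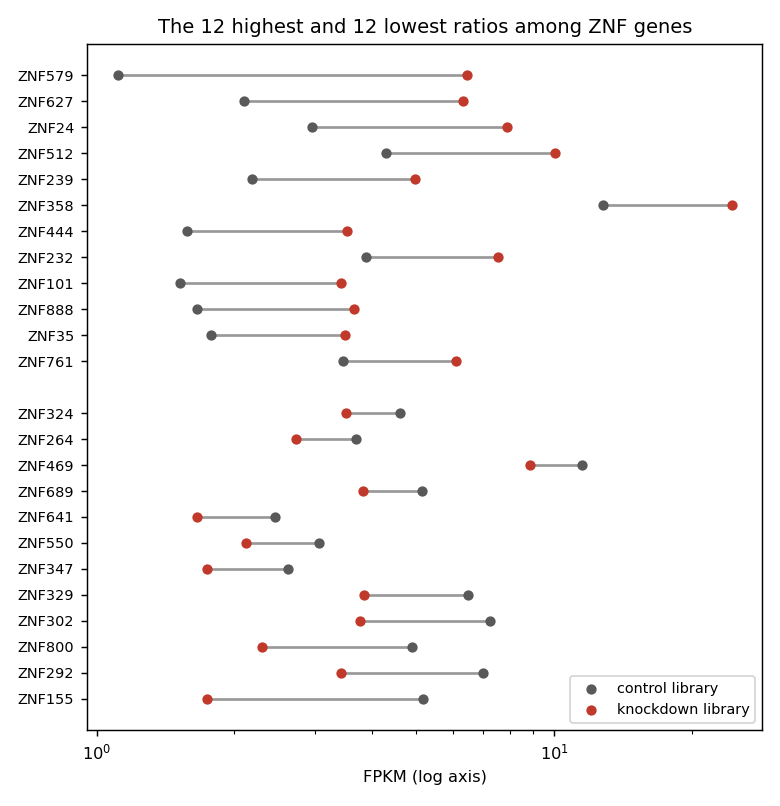
FPKM, on a log axis, of the 12 members with the highest and the 12 with the lowest log2 ratio, in the control library (grey points) and the knockdown library (red points), joined by a line for each gene. The widest gap is that of ZNF579, from 1.11 to 6.46 FPKM, and the widest in the other direction is that of ZNF155, from 5.16 to 1.75.

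The members were then grouped by patterns in the protein that each gene encodes, which the rule had not used. A C2H2 finger pattern was found in 240 of the 247 proteins, and over all members the median was 10 fingers and the highest number 31. A KRAB pattern was found in 130 members without a SCAN pattern, and a SCAN pattern in 13, of which 2 also have a KRAB pattern. Another 99 had a finger pattern and neither of these. They are called members with fingers alone here, although no other domain was searched for and some may carry one. The KRAB members had a median log2 ratio of 0.20, with quartiles of 0.02 and 0.40, and 99 of 130 were above 0. SCAN members had a median of 0.12, with 10 of 13 above 0, and members with fingers alone one of 0.08, with 64 of 99 above 0. The other 5 members, with none of these patterns, had a median of -0.01. Another 2 without a finger pattern, ZNF862 and ZNF738, were counted with the KRAB members for their KRAB pattern. The KRAB members thus had the highest median of the 4 classes, and their quartiles overlap those of the members with fingers alone, which were -0.07 and 0.22.

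The share of members above 0 did not climb steadily with the number of fingers. The median was 0.06 in 18 members with 1 to 2 fingers, 0.12 in 34 with 3 to 5, 0.10 in 63 with 6 to 9, 0.18 in 67 with 10 to 13 and 0.19 in 58 with 14 or more. At least 5 TGEKP linkers were found in 97 members, whose median was 0.22. The 70 members with 1 to 4 linkers had a median of 0.11, and the 80 with none one of 0.07.

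Zinc finger genes with symbols that the rule does not take offer a further description. The groups by pattern and those by symbol overlap, so they are not separate sets of genes. The 20 genes with a KRAB pattern, at least 1 finger and another symbol had a median log2 ratio of 0.14, with 15 above 0, and the 110 genes with at least 3 fingers, no KRAB pattern and another symbol one of 0.00, with 56 above 0. By symbol, 9 ZSCAN genes, which join SCAN domains to fingers, had a median of 0.27, with 8 above 0. The 24 ZBTB genes, which join BTB domains to fingers, had one of -0.04, with 7 above 0. Medians were 0.13 in 11 ZFP genes, 0.08 in 4 ZKSCAN genes and 0.13 in 15 genes whose ZNF symbol ends in a letter.

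**Figure D4:**
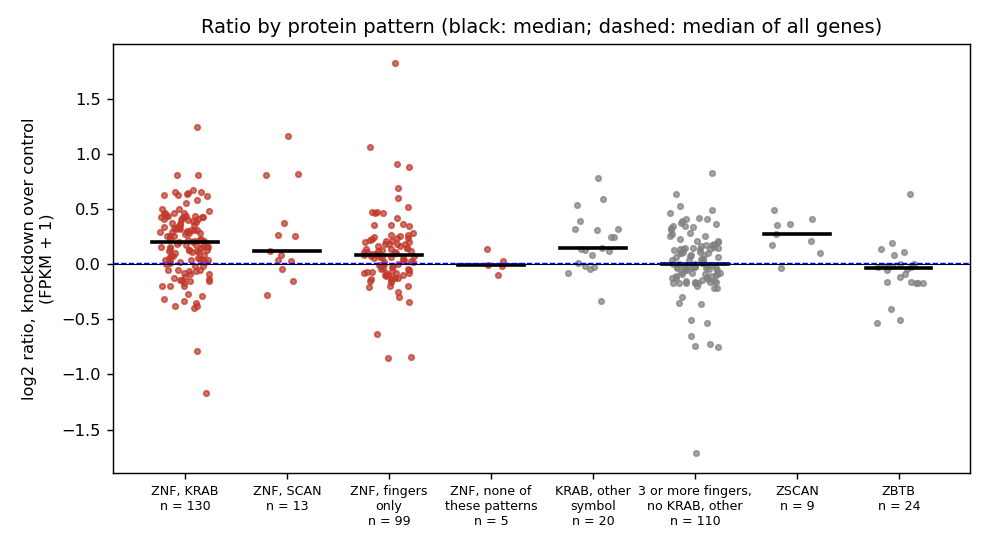
Log2 ratio of FPKM + 1, knockdown over control, for members in 4 classes by protein pattern (red points, each a gene) and for other zinc finger genes that averaged at least 2 FPKM (grey points, in groups that overlap). Black bars mark medians, which are highest in the 9 ZSCAN genes at 0.27 and in the 130 KRAB members at 0.20, and lowest in the 24 ZBTB genes at -0.04.

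Nearly as many members lay on chromosome 19 as on all others. The 121 on chromosome 19 had a median log2 ratio of 0.17, with 92 above 0, and the 126 on other chromosomes one of 0.09, with 83 above 0. The 587 other genes on chromosome 19 had a median of 0.05, above the 0.01 of the 8691 other genes elsewhere. Of these other genes, 62.5% on chromosome 19 and 51.5% elsewhere were above 0, against 76.0% and 65.9% of the members. KRAB members had similar medians in both places, 0.21 in 93 members on chromosome 19 and 0.19 in 37 elsewhere. Members outside the KRAB class had a median of 0.15 in 28 genes on chromosome 19 and 0.06 in 89 genes elsewhere.

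Runs of neighbouring ZNF genes, with at most 2 other coding genes between them in GENCODE, held 154 members beside at least 1 other member, and these had a median of 0.17. The 93 members with no other member in their run had a median of 0.06. There were 8 runs with at least 6 members, 7 on chromosome 19 and 1 on chromosome 7, and each had a median above 0. In the run from ZNF627 to ZNF791, all 11 members were above 0, from 0.10 for ZNF700 to 1.24 for ZNF627, with a median of 0.31. ZNF564 at 0.64, ZNF433 at 0.38 and ZNF439 at 0.35 followed ZNF627. Copies are frequent in that run: in 9 of the 11 members at least 10% of the 31-base words occur in other genes, up to 85.6% in ZNF564 and 100% in ZNF625, and ZNF564, ZNF433 and ZNF625 share same-strand exons with another listed gene. Their single values are uncertain for that reason, and ZNF627 and ZNF823, at 4.52% and 8.98%, were the 2 below 10%. The run from ZNF283 to ZNF180 had a median of 0.29 over 13 members, and ZNF155, at -1.17, lies in it between ZNF221 at 0.34 and ZNF222 at 0.33. The others of that run below 0 were ZNF284 at -0.15 and ZNF283 at -0.06. Likewise ZNF579 was at 1.82 while the other 5 members of its run lay between -0.08 and 0.36.

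**Figure D5:**
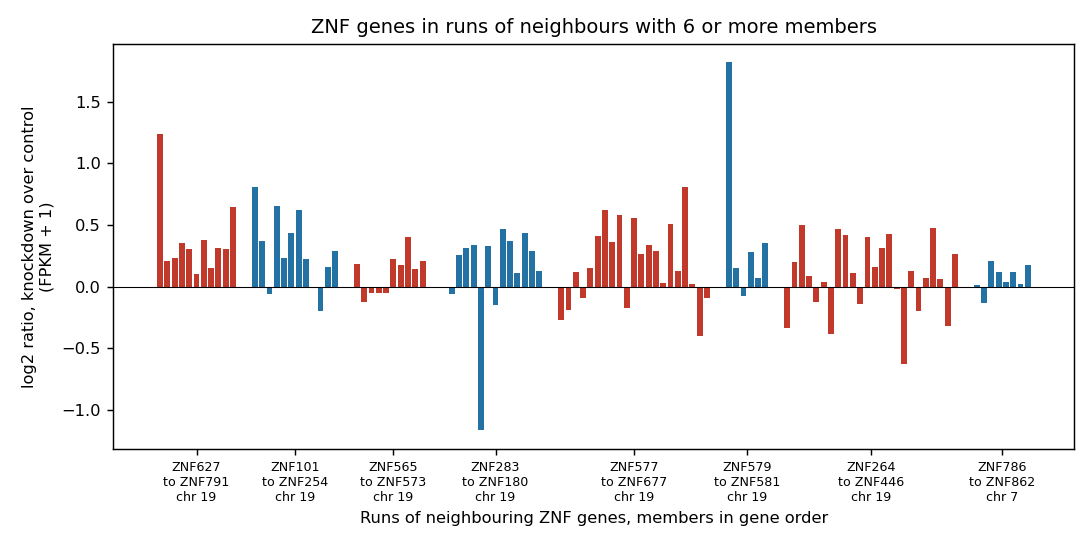
Log2 ratio of FPKM + 1, knockdown over control, of each member (1 bar a gene, in gene order) in the 8 runs of neighbouring ZNF genes with at least 6 members, with colours alternating between runs. All 11 bars of the run from ZNF627 to ZNF791 are above 0, and ZNF155 is the deepest bar at -1.17, among neighbours that are mostly above 0.

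Neighbouring copies resemble each other in sequence, and the authors' counting may have divided reads among them. In 71 members at least 10% of the 31-base words of the transcript occur in transcripts of other genes, and these had a median log2 ratio of 0.23, with 56 above 0. The 95 members with under 1% of such words had a median of 0.10, with 65 above 0. Members that share exons with no other listed gene on either strand numbered 197, and their median was 0.13, with 141 above 0.

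Features of the transcript were set beside the ratio by dividing all genes into 5 classes of equal size. The median 3′ untranslated region of the longest coding transcript was 1069 bases in members and 946 in other genes. In the class with the shortest such regions, up to 281 bases, 39 members had a median log2 ratio of 0.20 and 1856 other genes one of 0.05. In the class with the longest, above 2592 bases, 41 members had a median of 0.07 and 1859 other genes one of -0.03. Both kinds of gene were thus lower in the class of long regions, and the members were higher than the other genes in each.

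GC content did not order the members as it ordered the other genes. Transcripts of members had a median GC content of 45.0%, below the 49.4% of other genes. Other genes had a median ratio of -0.04 in the class of lowest GC content and 0.06 in that of highest. The 66 members in the lowest class had a median of 0.15 and the 46 in the highest one of 0.12, while the 23 in the fourth class had one of -0.01, below the 0.03 of other genes there. By transcript length, the 46 members in the longest class also had a median of -0.01, close to the -0.02 of other genes there, and in the other 4 classes the members' median lay between 0.11 and 0.21. The part of these features in the ratios was not tested.

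Promoters of members were compared by fixed letter motifs. The 250 bases before the start were taken from the RefSeq promoter table (build GRCh38.p14), which matched 208 of the 247 members, and searched on both strands. The CCAAT box, CCAAT, was in 41.8% of them, in 33.0% of all 27305 promoters of that length and in 36.0% of the 7553 promoters of other genes that averaged at least 2 FPKM. It was in 54.1% of the 109 KRAB promoters and in 28.3% of the other members' promoters. A motif of the ETS family, CCGGAAG, was in 30.8% of members, 8.82% of all promoters and 17.7% of other genes at that level. The GC box, GGGCGG, was in 65.9% of members and 70.6% of other genes at that level, against 42.3% of all. The TATA box, TATAAA, was in 3.37% of members, 4.85% of other genes at that level and 11.1% of all.

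The remaining motifs were each in under 4% of members. The cyclic AMP element, TGACGTCA, was in 3.37% of members, 3.08% of other genes at that level and 1.77% of all promoters. The E box, CACGTG, was in 3.85%, 9.45% and 6.49%, the YY1 motif, AAGATGGCG, in 1.44%, 1.11% and 0.641%, and the NRF1 motif, TGCGCATGC, in 1.44%, 2.63% and 1.37%. None of these motifs contains another. Members with a CCAAT box had a median log2 ratio of 0.18 and those without one 0.10, while the CCAAT box was also more frequent among KRAB promoters, and members with the ETS motif had one of 0.12 against 0.14 without.

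The promoters printed are those of the KRAB members with the 2 highest ratios, ZNF627 and ZNF101, and the 2 lowest, ZNF347 and ZNF302, among members in the table. They are written 5′ to 3′ along the gene, with the motifs above in capitals. They lie on chromosome 19 of GRCh38.p14, ZNF627 at chr19:11597233-11597482, ZNF101 at chr19:19668589-19668838 and ZNF302 at chr19:34677428-34677677 on the plus strand, and ZNF347 at chr19:53159054-53159303 on the minus strand. ZNF627, ZNF101 and ZNF347 hold a CCAAT box and at least 1 GC box, and ZNF302 a GC box and an ETS motif. Both of the high members printed thus hold a CCAAT box. Of the 2 low ones, ZNF347, with a log2 ratio of -0.40, holds one and ZNF302, at -0.79, does not. The promoter of ZNF155, the KRAB member with the lowest ratio, is not printed.
ZNF627: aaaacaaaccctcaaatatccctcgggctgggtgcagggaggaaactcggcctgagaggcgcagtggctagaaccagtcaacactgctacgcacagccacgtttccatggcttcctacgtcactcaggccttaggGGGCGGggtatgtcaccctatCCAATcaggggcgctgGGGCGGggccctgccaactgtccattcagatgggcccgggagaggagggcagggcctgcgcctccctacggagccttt
ZNF101: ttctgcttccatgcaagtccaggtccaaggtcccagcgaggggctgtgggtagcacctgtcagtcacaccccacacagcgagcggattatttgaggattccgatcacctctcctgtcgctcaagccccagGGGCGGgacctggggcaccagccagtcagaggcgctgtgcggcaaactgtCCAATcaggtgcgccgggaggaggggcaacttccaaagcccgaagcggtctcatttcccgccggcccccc
ZNF347: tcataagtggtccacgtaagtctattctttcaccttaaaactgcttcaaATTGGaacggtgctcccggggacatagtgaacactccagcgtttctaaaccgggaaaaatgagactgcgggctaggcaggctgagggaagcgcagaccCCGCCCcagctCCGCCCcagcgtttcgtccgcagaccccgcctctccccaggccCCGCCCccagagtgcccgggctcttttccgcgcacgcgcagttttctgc
ZNF302: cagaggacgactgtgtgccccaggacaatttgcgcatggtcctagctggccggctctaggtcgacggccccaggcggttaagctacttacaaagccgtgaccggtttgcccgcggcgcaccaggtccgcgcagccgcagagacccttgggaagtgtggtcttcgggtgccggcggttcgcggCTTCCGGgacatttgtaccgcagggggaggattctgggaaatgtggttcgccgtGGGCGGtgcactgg

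Members with known roles were described by 3 lists. Of 5 genes that bind transposable elements, imprinted sites or ZNF genes themselves, or that gave the KRAB domain most used in repression assays, 3 were members and all 3 were above 0. So were 70.9% of all members and 52.7% of all genes. ZNF91, which represses SVA elements, was at 3.48 and 3.02 FPKM in the knockdown and control libraries. ZNF93, which represses LINE-1 elements, was at 4.35 and 3.56 FPKM, and ZNF274, which brings SETDB1 to the ends of ZNF genes, was at 4.93 and 4.44. These differences were all under 1.5-fold. ZNF445, which guards imprinted sites, and ZNF10, the source of that KRAB domain, had means under 2 FPKM, at 0.498 and 1.49 FPKM and at 0.536 and 0.187.

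Of 19 genes of chromatin and transcription, 18 were members, 10 of them above 0, with a median log2 ratio of 0.02, and ZNF711 was not analysed here. The share above 0, 55.6%, was near the 52.7% of all genes and below the 70.9% of all members. ZNF24, given above, was the one of the 18 past 1.5-fold. ZNF143, an activator of small nuclear RNA genes, was at 3.79 and 3.93 FPKM, and its relative ZNF76 at 10.3 and 9.57. ZNF148 was at 3.42 and 4.08 FPKM, ZNF281 at 11.4 and 9.98, and ZNF131 at 3.79 and 3.92. These factors lay within 1.2-fold of equality. ZNF687, ZNF592 and ZNF532, which join ZMYND8 in one complex, were at 3.65 and 4.54 FPKM, 6.97 and 6.79, and 3.76 and 3.51. ZNF410 and ZNF687 overlap exons of other listed genes. ZNF410, the activator of CHD4, was at 4.45 and 4.64 FPKM, and ZNF644, a partner of the methyltransferases GLP and G9a, at 7.98 and 8.89. ZNF335 was at 5.30 and 4.56 FPKM and ZNF516 at 2.24 and 2.27. ZNF703, amplified in luminal breast cancers, was at 6.16 and 6.66 FPKM. ZNF350, a partner of BRCA1, was at 2.76 and 2.46 FPKM, ZNF746, or PARIS, at 3.26 and 2.93, and ZNF827 at 3.07 and 3.07. The list as a whole lay near the median of all genes, 0.01.

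Of 10 members that act away from promoters, 8 were above 0, with a median log2 ratio of 0.07 and none past 1.5-fold. The share above 0 was 80%, against 70.9% of all members and 52.7% of all genes, and 10 genes are too few to set these shares apart. Besides ZNF622 and ZNF593, ZNF207, a kinetochore protein, was at 9.11 and 8.72 FPKM, and ZNF598, the ligase that marks collided ribosomes, at 9.74 and 9.71. ZNF638, which silences unintegrated viral DNA, was at 12.6 and 11.5 FPKM, ZNF326 at 9.42 and 8.99, ZNF830 at 9.72 and 8.55 and ZNF706 at 5.33 and 5. ZNF451, a SUMO ligase, at 4.06 and 4.63 FPKM, and ZNF346, which binds double-stranded RNA, at 5.44 and 5.87, were the 2 below 0.

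The 17 genes of the machinery that KRAB proteins recruit, or that is tied to it, had a median log2 ratio of 0.02, with 9 above 0. That share, 52.9%, was close to the 52.7% of all genes. TRIM28, the corepressor that binds KRAB domains, was at 52.2 and 50.3 FPKM, SETDB1 at 5.83 and 5.42, and its partner ATF7IP at 4.73 and 4.79. These were near equal in both libraries. Of the HP1 proteins, CBX1 was at 29.8 and 57.1 FPKM, the one gene of the list past 1.5-fold, CBX3 at 82.1 and 97.9 and CBX5 at 15.96 and 17.1. All 3 HP1 genes had the lower value in the knockdown library, as did 4504 of all 9525 genes that averaged at least 2 FPKM. The log2 ratios were -0.92 for CBX1, -0.25 for CBX3 and -0.09 for CBX5. That of CBX5 lay within the quartiles of all genes, -0.13 and 0.15. In the HUSH complex, which silences transposable elements, TASOR was at 7.54 and 6.03 FPKM, MPHOSPH8 at 13.8 and 15.2, PPHLN1 at 2.86 and 3.08, and the associated MORC2 at 16.2 and 15.3. The remodellers CHD3 and CHD4 were at 32.1 and 31.7 FPKM and 50.04 and 47.6, DNMT1 at 91.5 and 81.4, and SMARCAD1 at 6.63 and 7.05. TRIM24 was at 12.2 and 11.6 FPKM, TRIM33 at 15.8 and 16.9, and ZMYND8 at 18.03 and 16.3.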

How the data were processed

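RNA was sequenced from 2 samples of 468 cells, 1 per group. Each deposited table gives FPKM per gene, per the file headers. HISAT2 2.0.5 alignment to hg19, with cutadapt and StringTie, is recorded in the submitters' processing notes. The sources used here give no annotation, strandedness or depth. FPKM times length between 80 and 100, in 14 and 10 genes of a single transcript, had medians of 89.7 and 91.4; read as 1 fragment, these give about 11100000 and 10900000 fragments. That window was set after the values were seen and bounds the answer, so the depth is rough. It puts the median member near 158 fragments, with a counting error near 0.16 on a log2 ratio taken without a pseudocount.

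Symbols were found for 12746 of 13017 identifiers. Ratios used a pseudocount of 1, with limits of 1.5-fold and 2-fold over the 9525 genes that averaged 2 FPKM or more. The gene that the rule excepts is not reported here. Coding sequences from GENCODE 29 were translated by script, the longest per gene, in place of the planned RefSeq proteins, and used by gene identifier only, apart from coordinates of printed sequences. A finger is Cys, 2 to 4 residues, Cys, 12 residues, His, 3 to 5 residues, His. Named genes are the 12 highest and 12 lowest ratios, the 8 most abundant members, 3 on either side of the limit, and the role and partner lists. The members and lists were chosen with earlier results of these data known. Alternatives changed the pseudocount, filter, scaling and members. Python 3.11.15, numpy 2.4.6, pandas 2.3.3 and matplotlib 3.10.9 were used, and the summaries were tested on simulated data.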

Additional observations from a re-analysis of the deposited data

How the results depend on the processing

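The settings that leave out members by exons on either strand, by shared words or by KRAB pattern were chosen after seeing the data. The median log2 ratio of the members, 0.13, kept its sign in every alternative run. For the pseudocounts this was fixed in advance, since no pseudocount can change the sign of a ratio. The median was 0.073 with a pseudocount of 5 and 0.081 without the KRAB class. With a pseudocount of 5, which shrinks low genes by construction, the medians were 0.106 for KRAB, 0.073 for SCAN, 0.105 for chromosome 19 and 0.054 for other chromosomes, the MAD-based SD 0.149 in place of 0.27, and 5 members were 1.5-fold higher, 1 was 1.5-fold lower and 0 were 2-fold apart in either direction. With a pseudocount of 0.1, 31 were 1.5-fold higher, 8 were 2-fold higher and 3 were 2-fold lower. Other choices of members changed the counts, not always in proportion to their number. The share of all genes past each limit was taken under the main setting only. The counts in this section therefore have no background beside them, and whether the excess over all genes holds under other settings was not tested. A mean of at least 5 FPKM left 90 members, with 62 above 0, 5 and 3 at 1.5-fold higher and lower and 2 and 0 at 2-fold. A mean of at least 1 FPKM gave 354, with 9 and 3 lower at 1.5-fold and 2-fold. At least 2 FPKM in both libraries gave 10 higher at 1.5-fold and 0 lower at 2-fold, over 217 members. Members with under 10% of shared words gave 10 and 2 at 1.5-fold and 0 lower at 2-fold, over 176, and those outside the KRAB class 76 above 0, 9 and 3 at 1.5-fold and 0 lower at 2-fold, over 117. Setting the median to 0, quantile normalization, or rescaling after removal of the 100 most abundant genes moved the median of all genes from 0.014 to between -0.0015 and 0. Of 372 values for 62 named members, 343 moved less than like genes spread (1 MAD-based SD), and 29 by more, 28 of them with a pseudocount of 0.1 or 5; 2 members within 0.004 of 0 changed sign. No paired analysis was possible because each group has 1 library. Depth limits low members most.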
